A study of Mus musculus with 31 samples.

Results

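The 4 RNA-seq tables of wild-type mouse embryonic stem (ES) cells were described on their own, with no comparison between genotypes. The members are the autosomal loci listed in all 4 tables: a locus of replicate 1 counted when its best partner in each of the other 3 tables was mutual and shared at least 80% of both loci. This gave 612 loci, from the 8647 to 9048 autosomal loci in each table. A locus is a stretch of the genome with transcript assembled on it, and its level is the deposited FPKM. FPKM stands for fragments per kilobase of transcript and per 1000000 fragments of the library. At some of the narrowest loci the deposited values exceed what this formula can give. The series has 31 samples in all. The 4 wild-type RNA samples share a mixed 129SVxC57/BL6 background, and the cells were derived together with Srap1 knockout cells. They were grown on gelatin-coated plates with serum, leukemia inhibitory factor, ascorbic acid and 2i, a pair of inhibitors of GSK3β and Mek 1/2. Total RNA was depleted of ribosomal RNA before a strand-specific library was made. The labels name no separate cultures for the 4 libraries. Any SD below is therefore the spread between 4 tables, which may be technical.

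ES cells are the cultured counterpart of the early embryo's pluripotent cells, and 2i with leukemia inhibitory factor holds them close to that ground state. A library depleted of ribosomal RNA, rather than selected for poly(A) tails, keeps messenger RNAs together with the short structural RNAs that RNA polymerase III makes, long noncoding RNAs and unspliced precursors. Such short structural RNAs are known to be among the most abundant transcripts of a dividing cell after ribosomal RNA. Which of these classes a given locus belongs to is not stated here, because the tables hold no gene name and the gene table at hand is of another build (GRCm38.p6, against mm9 for the files). Loci are therefore named by mm9 position, without a gene or a place within one, and no sequence is shown, and the ES cell label was not checked against marker genes. The tables hold no strand.

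Each table listed 8882 to 9295 loci, and the bounds around the FPKM values imply 895779 to 926460 fragments per table. Each table also held 1 locus on chromosome 17 that begins within 3 bases of 39979941, at 47660 to 50078 FPKM, which was set aside. Of the 8647 autosomal loci of replicate 1, 612 (7.08%) were members. Another 4513 (52.2%) touched a locus in each of the other 3 tables but lacked a mutual partner at this overlap in at least 1 of them. A further 2704 touched a locus in 1 or 2 other tables, and 818 touched none. The members held 28.6% to 30.2% of the implied fragments of autosomal loci, with the chromosome 17 locus left out of that total. Of all implied fragments of a table they held 10.4% to 11.0%. The median of the members in replicate 1 was 40.9 FPKM and 48.3 implied fragments. Loci that touched in all 3 other tables but were not paired in all of them had 18.5 FPKM and 22.0 fragments. Loci found in replicate 1 alone had 11.7 FPKM and 11.0 fragments. Members thus had more implied fragments and higher levels than the other loci, which describes the choice of members and was not tested.

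The median level of the members was nearly the same in each table, at 40.9, 42.0, 40.9 and 41.5 FPKM in replicates 1 to 4 (mean 41.3 ± 0.519 FPKM, SD of 4 tables). The quartiles were 24.8 and 85.1 FPKM in replicate 1, and those of the other tables were close to them (24.4 to 24.9 and 81.6 to 84.8 FPKM). The mean level of a locus over the 4 tables ran from 8.17 FPKM at chromosome 11, 83217152 to 83218419, to 1126960000 FPKM at a locus of 26 bases on chromosome 8. A mean of at least 50 FPKM was reached by 248 loci, at least 200 FPKM by 87 and at least 1000 FPKM by 33. No locus of 1000 bases and over reached 1000 FPKM, and 28 of the 33 that did were under 300 bases wide.

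Levels were far higher in narrow loci than in wide ones, and differed little between classes from 1000 bases up. Each class includes its lower end and not its upper. The 43 loci under 300 bases had a median of 8954 to 16947 FPKM over the 4 tables. The 146 loci of 300 to 1000 bases had 64.6 to 69.8 FPKM, and the 139 of 1000 to 3000 bases had 30.9 to 32.8 FPKM. In the 122 loci of 3000 to 10000 bases the median was 34.2 to 37.1 FPKM, and in the 162 of 10000 bases and over it was 34.7 to 37.8 FPKM. The ranges of the first 3 classes did not overlap, and those of the last 2 did. The first 3 classes stood in the same order in all 4 tables. Their levels rested on the pairing: over the means of the 4 tables, the median at 300 to 1000 bases was 69.0 FPKM at the 80% overlap and 29.0 FPKM at 50%, there below the 31.99 FPKM of loci of 10000 bases and over. It was 43.8 FPKM without replicate 1 and 43.4 FPKM without replicate 2. Between the same overlaps the median went from 11505 to 5002 FPKM under 300 bases and from 32.4 to 17.6 FPKM at 1000 to 3000 bases. Under 300 bases it was 7150 FPKM without replicate 1, 7064 FPKM without replicate 4 and 26258 FPKM when width was that of the union of the 4 tables.

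The median number of fragments did not follow the same course. The fragment number behind a value was read from the deposited upper bound, whose distance from the FPKM was read as 2 SD under Poisson counting. The median implied number was 48.7 to 51.7 per locus under 300 bases, 57.0 to 58.3 at 300 to 1000 bases and 39.7 to 42.4 at 1000 to 3000 bases. It was 37.2 to 41.6 at 3000 to 10000 bases and 53.2 to 59.8 at 10000 bases and over. The medians of fragments thus differed far less between classes than those of FPKM, although the 7.03% of loci under 300 bases held 25.3% of the members' fragments. The ratio of level to fragments had a median of 37.9 FPKM per implied fragment under 300 bases, 1.34 at 300 to 1000 bases, and 0.588 to 0.846 in the wider classes. In the 16 loci of 100 bases and under it was 23881 FPKM, with a range of 408 to 4767740 FPKM per fragment. At the narrowest loci the deposited FPKM was far above what width and implied fragments give by the definition of FPKM. At chromosome 8, 59322837 to 59322862 (26 bases), the mean was 1126960000 FPKM on 668 implied fragments. Ranks by FPKM at such loci are ranks of the deposited value and do not measure transcript abundance. Narrow loci are therefore described below by fragments as well as by FPKM.

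**Figure D1:**
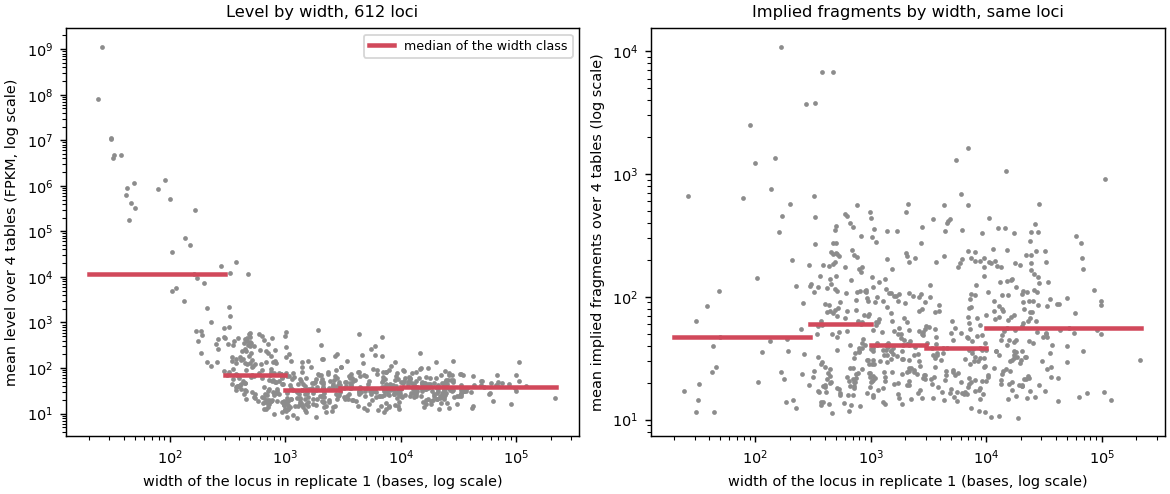
Each point is 1 of the 612 loci, placed by its width in replicate 1 (x, bases, log scale), against its mean level over the 4 tables (left, FPKM, log scale) or its mean implied fragment number (right, log scale). Red lines are medians of the 5 width classes. Levels rise steeply to the left below 300 bases, while the class medians of implied fragments in single tables stay between 37.2 and 59.8 and the 5 deepest loci are under 500 bases.

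Among loci of 300 to 1000 bases, a few short loci stood far above the rest. The highest was on chromosome 5, 147072566 to 147072941 (376 bases). Its level was 21667, 21892, 21826 and 21076 FPKM in replicates 1 to 4, a mean of 21615 ± 372 FPKM (SD, 4 tables). Chromosome 9, 78023113 to 78023443 (331 bases), came next at 12278, 11989, 12495 and 12026 FPKM. Chromosome 11, 108872957 to 108873428 (472 bases), had 11597, 11787, 11221 and 11435 FPKM. All values of the chromosome 9 locus lay above all those of the chromosome 11 locus, with a narrow gap. The fourth, chromosome 14, 51427119 to 51427443 (325 bases), had 2324, 2273, 2120 and 2144 FPKM, well below the first 3 in every table.

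These 4 loci varied little between tables. Their highest value exceeded their lowest by a factor of 1.04, 1.04, 1.05 and 1.1, against a median factor of 1.42 over all members. Chromosome 17, 36368203 to 36368535 (333 bases), was less steady, with 1096, 1471, 1717 and 1374 FPKM. It was lowest in replicate 1 and highest in replicate 3, a factor of 1.57. Chromosome 3, 119412434 to 119412762 (329 bases), had 896, 878, 584 and 817 FPKM, with replicate 3 below the others. The remaining 4 of the 10 highest loci of this class had means of 505 to 577 FPKM. They lay on chromosomes 3, 6, 1 and 10, and their values overlapped between neighbours in that order.

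At chromosome 5, 147072566 to 147072941, the implied fragments were 8243, 8554, 1857 and 8270 in replicates 1 to 4. The value of replicate 3 departs from the others although the 4 FPKM values lie within a factor of 1.04, so implied fragments are an approximation. At some wide loci they fail as counts. Chromosome 10, 127534072 to 127550733, had 0.00126 implied fragments in replicate 4 at 31.2 FPKM. Chromosome 1, 84738622 to 84837167, had 0.00684 in replicate 3 at 53.8 FPKM. Such values enter the means, classes and factors of implied fragments given here. The bounds behind them also enter the standard errors and the overlap of bounds given below.

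Loci of 1000 bases and over reached lower levels and varied more. The highest mean was on chromosome 18, 60934285 to 60936202 (1918 bases), with 467, 681, 738 and 900 FPKM in replicates 1 to 4. Its 31.3 to 50.8 implied fragments are few for such a level, at 17.3 FPKM per fragment, and its bounds overlapped between all pairs of tables. Chromosome 7, 89919538 to 89920558 (1021 bases), had 211, 275, 1180 and 752 FPKM. Replicates 3 and 4 were high and replicates 1 and 2 low, and the factor of 5.59 was the largest of any member of 300 bases and over with a mean of at least 50 FPKM. The highest value, in replicate 3, stood on the fewest implied fragments of the 4 tables, 75.2 against 117 to 199.

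The next loci differed in how steady they were. Chromosome 7, 13507675 to 13512001 (4327 bases), had 573, 537, 557 and 554 FPKM, a mean of 555 ± 14.7 FPKM (SD, 4 tables), and lay within a factor of 1.07. Chromosome 19, 5795754 to 5802674 (6921 bases), had 325, 591, 420 and 587 FPKM. Replicates 2 and 4 were above replicates 1 and 3 there, and the implied fragments were 1318, 1816, 1546 and 1819, in nearly the same order. This was the deepest member of 1000 bases and over.

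The other 6 of the 10 highest wide loci had means of 206 to 314 FPKM. Chromosome 15, 76734727 to 76736769, had 359, 292, 317 and 289 FPKM. Chromosome 11, 48613580 to 48619593, had 213, 345, 401 and 261 FPKM, with replicates 2 and 3 high, and its highest value stood on the fewest implied fragments, 566 against 694 to 806. Chromosome 7, 121848721 to 121849735, had 294, 281, 291 and 280 FPKM and was the steadiest of the 10, within a factor of 1.05. Chromosome 17, 45704730 to 45710206, had 256, 240, 259 and 312 FPKM, with replicate 4 above the others, again on the fewest implied fragments, 1082 against 1283 to 1464. Chromosome 6, 122677825 to 122692541 (14717 bases), had 228, 202, 217 and 218 FPKM, and chromosome 8, 105388688 to 105389766, had 189, 218, 199 and 216 FPKM. The ranges of these 2 loci overlapped, so their order is not set by these tables.

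**Figure D2:**
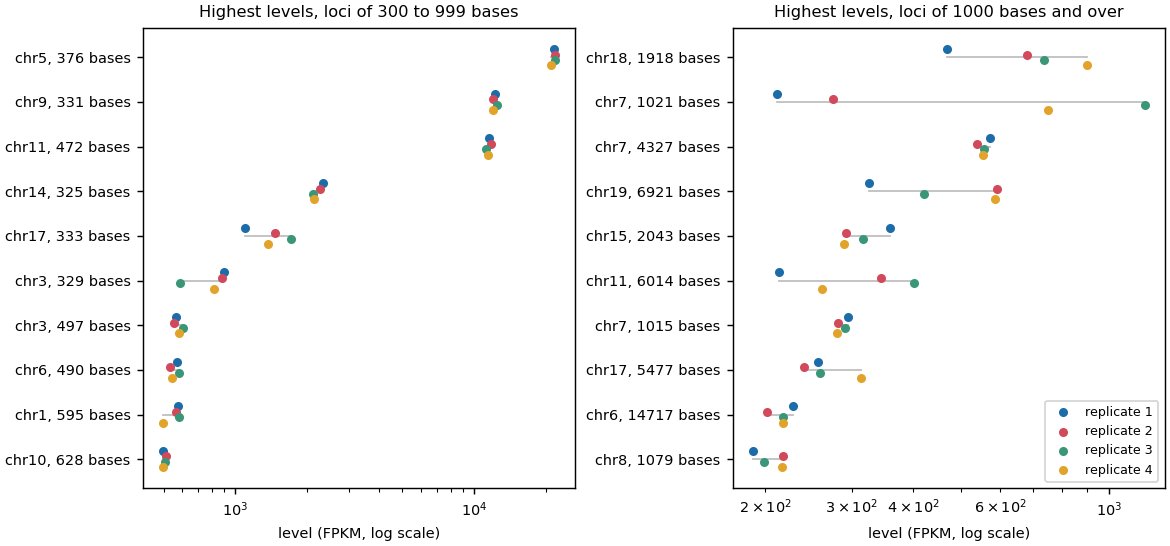
Levels in the 4 wild-type tables (x, FPKM, log scale) of the 10 loci with the highest mean among those of 300 to 1000 bases (left) and of 1000 bases and over (right). Points are tables, grey lines run from the lowest to the highest value, and rows give chromosome and width. The 4 highest short loci lie within a factor of 1.1, while the second wide locus spans a factor of 5.59.

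The 20 highest deposited FPKM values of all members belonged to loci of 24 to 167 bases. In each table, these same 20 loci were the 20 highest. Their means ran from 35306 to 1126960000 FPKM and their implied fragments from 11.6 to 10874. The highest, chromosome 8, 59322837 to 59322862 (26 bases), had 1480570000, 479025000, 1975590000 and 572643000 FPKM. Those values differ by a factor of 4.12, with replicates 1 and 3 high and replicates 2 and 4 low. The second, chromosome 5, 93417930 to 93417953 (24 bases), reached 126048000 FPKM in replicate 1 from 12.0 implied fragments.

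By fragments, another narrow locus led. Chromosome 13, 113368383 to 113368549 (167 bases), had 10633, 11026, 10845 and 10990 implied fragments in replicates 1 to 4. This locus alone held 10.9% to 11.5% of all implied fragments of the members. Its fragment numbers lay within a factor of 1.04, while its FPKM was 274337, 256373, 250085 and 379606, with replicate 4 high and a factor of 1.52.

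The same contrast held at chromosome 9, 3258819 to 3258918 (100 bases). Its implied fragments were 1240, 1277, 1178 and 1251, within a factor of 1.08, whereas its FPKM was 466975, 434008, 949295 and 167279, a factor of 5.67. The ends of this locus moved by up to 35 bases between tables. At loci of 100 bases and under, the median factor between tables was 2.72 for FPKM and 1.59 for implied fragments, and FPKM had the larger factor at 14 of the 16. At the 569 loci of 300 bases and over the medians were 1.40 and 1.43, and FPKM had the larger factor at 248. Levels of the narrowest loci thus varied more between tables than their fragments did.

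Fragments were concentrated in few members. The 5 deepest loci held 28.6% to 33.8% of the members' implied fragments, and the 20 deepest held 46.1% to 48.8%. The 5 deepest are the loci on chromosomes 13, 11, 5 and 9 given above, at 113368383, 108872957, 147072566 and 78023113, and chromosome 4, 43505655 to 43505931 (277 bases). The last had 17514, 16947, 16755 and 17627 FPKM, within a factor of 1.05. All 5 were under 500 bases wide. Their lowest share, 28.6%, is that of replicate 3, where the implied fragments of the chromosome 5 locus depart from the other tables.

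**Figure D3:**
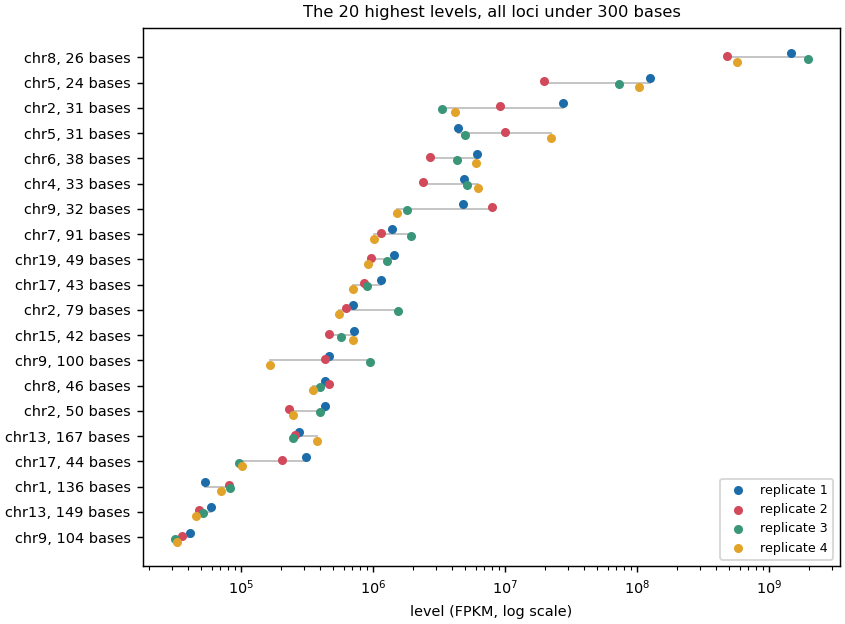
Levels in the 4 tables (x, FPKM, log scale) of the 20 members with the highest mean, all under 300 bases wide; rows give chromosome and width, points are tables and grey lines run from the lowest to the highest value. The 7 upper rows span factors of 2.27 to 8.25 between tables, and 3 of the others, on chromosomes 2, 9 and 17, span more than 2.

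The widest members lay at moderate levels. Chromosome 6, 32742498 to 32958569 (216072 bases), had 32.5, 24.7, 13.0 and 19.8 FPKM, with 1.61 to 49.6 implied fragments. Its ends moved by up to 51674 bases between tables. Chromosome 12, 103822624 to 103943126 (120503 bases), had 38.5, 38.2, 28.8 and 52.3 FPKM. Chromosome 1, 155073537 to 155179617 (106081 bases), stood out among the 5 widest. Its level was 129, 132, 133 and 140 FPKM, within a factor of 1.09, from 665 to 1184 implied fragments. Chromosome 15, 10539665 to 10644295 (104631 bases), had 46.5, 49.3, 47.4 and 69.5 FPKM, and chromosome 4, 138748867 to 138847895 (99029 bases), had 29.1, 37.5, 26.9 and 34.7 FPKM.

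The members were spread over all 19 autosomes, with 13 to 48 on each and 2.48 per 10 Mb in all. They covered 5.86 Mb, or 0.237% of the autosomal length, which was read from the last position of aligned reads in a DNA library of the series. Chromosome 11 carried the most for its length, 3.86 per 10 Mb, and chromosome 16 the fewest, 1.32 per 10 Mb. The number of members followed the number of loci in replicate 1 (Spearman 0.843 over 19 chromosomes) more closely than chromosome length (0.710). The chromosomes share the same 4 libraries, so these correlations are descriptions. Chromosome 3 had the largest share of its replicate 1 loci among the members, 12.1%, and chromosome 16 the smallest, 4.55%.

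Median levels differed little between chromosomes. The highest chromosome median exceeded the lowest by a factor of 1.89 to 2.08 in the 4 tables. Chromosome 13 was highest or second in each table, at 68.4, 56.9, 56.8 and 64.8 FPKM, and chromosome 6 was first or second, at 61.1, 57.3, 59.6 and 50.7 FPKM. By the mean of the 4 tables chromosomes 17 and 4 were lowest, at 30.2 to 35.3 and 31.5 to 37.2 FPKM, but chromosome 11 was lowest in replicate 4, at 32.7 FPKM, and chromosome 4 was 15th of 19 in replicate 2. When chromosomes were ordered by median, the ranges over the tables overlapped in 17 of 18 neighbouring pairs. The order of most chromosomes is therefore not set by these tables.

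The place of chromosome 13 differed between all members and wide ones. Of its 26 members, 61.5% were under 1000 bases wide. Chromosome 12 had a like share, 61.9%, with a median of 33.7 to 47.0 FPKM for all its members. Over the 19 chromosomes the Spearman correlation between median level and that share was 0.297. Among loci of 1000 bases and over chromosome 13 had the lowest median in 3 of the 4 tables and the next lowest in replicate 2. Its 10 wide loci had medians of 22.7 to 27.6 FPKM, against a median of 34.0 to 35.4 FPKM over all wide members. In this width range chromosomes 19 and 7 were high, at 43.98 to 52.99 and 40.85 to 50.99 FPKM, from 15 and 41 loci. Chromosome 6 had 38.7 to 44.3 FPKM from 31 loci. In replicate 4, however, chromosomes 12 and 18 were highest, at 49.7 and 48.6 FPKM, from 8 and 11 loci. At this width the ranges over the tables overlapped in 16 of 18 neighbouring pairs of chromosomes ordered by median.

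**Figure D4:**
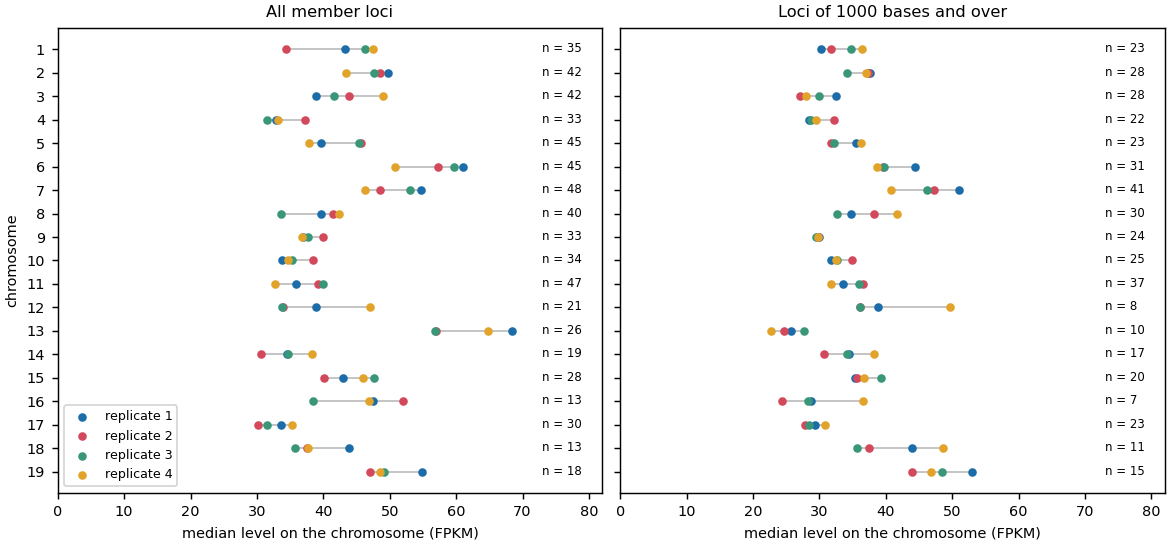
Median level of the members on each autosome (x, FPKM) in the 4 tables, for all members (left) and for loci of 1000 bases and over (right); points are tables, grey lines their range, and n is the number of loci. On the left side chromosome 13 lies at 56.8 to 68.4 FPKM, farthest right in replicates 1 and 4, with chromosome 6 farthest right in replicates 2 and 3. On the right side chromosome 13 lies lowest or next lowest in each table, at 22.7 to 27.6 FPKM.

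The members stood in much the same order in the 4 tables. Over the 6 pairs of tables, the Pearson correlation of log2(FPKM + 1) was 0.986 to 0.990, and Spearman's was 0.906 to 0.935. Without the 43 loci under 300 bases these were 0.942 to 0.956 and 0.884 to 0.919. Correlations run across loci of the same libraries, which are not independent replicates. The median difference between tables was at most 0.02 in size on the log2 scale, so no table lay above the others as a whole. FPKM is already scaled to the fragments of each library, so this likeness, and that of the medians above, is partly set by the unit. Each table was the highest at 148 to 159 members and the lowest at 143 to 172, with replicate 2 lowest most often.

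For a typical member, levels in any pair of tables differed by a factor of 1.17 to 1.19 (median). Between 92.0% and 94.6% of members lay within a factor of 2. Over all 4 tables together, the highest value exceeded the lowest by a median factor of 1.42, with quartiles of 1.23 and 1.82. It did so by less than 1.5 at 340 loci and by at least 2 at 105 loci (17.2%). A factor of at least 5 was seen at 6 loci. The deposited bounds overlapped in every pair of tables at 497 loci (81.2%). Differences were also set against the error that the bounds imply, read as counting error. On that scale, where 1 is that error alone, the scaled median difference of a pair was 1.11 to 1.33 standard errors. In each pair 22 to 33 loci lay over 4 standard errors apart. Bounds whose implied fragments fail as counts enter these errors. The tables thus varied somewhat more than the bounds imply.

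The spread between tables followed depth. Among loci of 300 bases and over, the median factor was 1.71 at 90 loci with under 20 implied fragments and 1.53 at 207 loci with 20 to 50. It was 1.39 at 113 loci with 50 to 100, and 1.20 at 159 loci with 100 and over. Factors of at least 2 made up 27.8%, 22.2%, 10.6% and 5.03% of these classes in the same order. By level, the factor was 1.55 under 20 FPKM, 1.51 at 20 to 50 FPKM, 1.29 at 50 to 200 FPKM and 1.16 at 200 FPKM and over. Level and depth are tied in these tables, so the 2 orders are not independent.

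Spread also went with how well the ends of a locus matched. A single member had the same start and end in all 4 tables, and the median largest shift of an end was 126 bases. Among loci of 1000 bases and over, the median factor was 1.29 at the 47 whose ends moved by 6 to 50 bases, 1.40 at the 219 with 51 to 500 bases and 1.69 at the 156 with over 500 bases. Among loci of 300 to 1000 bases it was 1.17 at 14 loci with shifts of 5 bases and under, 1.23 at 69 loci with 6 to 50 bases, and 1.35 at 63 loci with 51 to 500 bases. Their implied fragments fell in the same order, from 190 to 220, through 75.7 to 84.3, to 26.0 to 30.1 per locus in the median. The parts of depth and of ends in the spread were not tested.

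**Figure D5:**
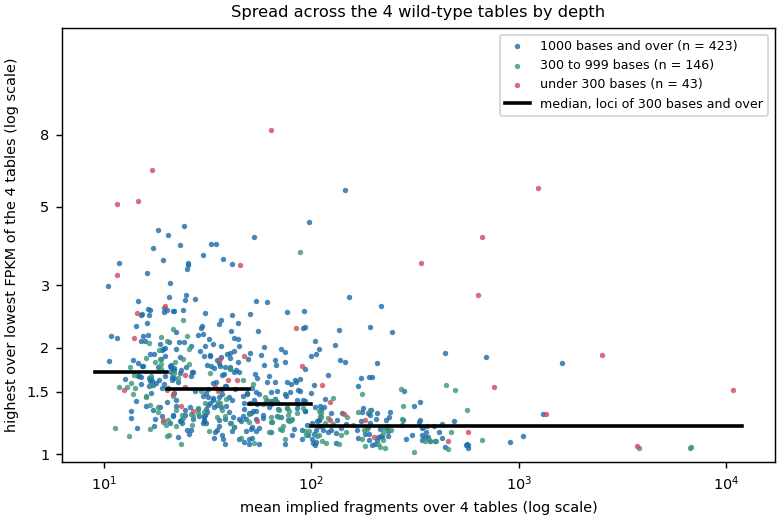
Highest over lowest FPKM of the 4 tables (y, log scale) against mean implied fragments (x, log scale) for the 612 members, coloured by width; black lines are medians of loci of 300 bases and over in 4 classes of depth. The medians step down from 1.71 to 1.20, and several narrow loci in red lie high in spite of many fragments.

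The steadiest members with a mean of at least 50 FPKM were short. Chromosome 2, 75029089 to 75029907 (819 bases), had 244, 242, 246 and 245 FPKM, a mean of 244 ± 1.81 FPKM (SD, 4 tables) and a factor of 1.02. Chromosome 10, 29418551 to 29419178 (628 bases), had 497, 513, 509 and 499 FPKM, a factor of 1.03. The third was the locus of 376 bases on chromosome 5. In all 3 the ends moved by at most 7 bases.

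At the other end, 4 of the 5 largest factors at 50 FPKM and over were at loci of 100 bases and under. Chromosome 2, 22599931 to 22599961 (31 bases), had a factor of 8.25, from 27453400 FPKM in replicate 1 to 3329360 FPKM in replicate 3. Without replicate 1 its mean was 5546760 FPKM, against 11023400 FPKM with it. Chromosome 5, 93417930 to 93417953, had 6.38, and chromosome 9, 72510073 to 72510104, had 5.21. Among loci of 300 bases and over, the locus of 1021 bases on chromosome 7 came first. It was followed by chromosome 3, 41359674 to 41409272, with 42.4, 90.9, 20.1 and 50.6 FPKM. Chromosome 1, 183835157 to 183849531, had 124, 30.2, 46.2 and 36.4 FPKM, with replicate 1 far above the other 3. Its mean was 59.3 FPKM, and 37.6 FPKM without replicate 1. Chromosome 11, 54679965 to 54684225, had 33.9, 47.5, 111 and 134 FPKM, with replicates 3 and 4 high. At chromosome 13, 21845275 to 21845678 (404 bases), replicates 1 and 2 had 286 and 273 FPKM and replicates 3 and 4 had 79.9 and 76.9 FPKM.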

How the data were processed

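The values are FPKM with a lower and an upper bound, per the file headers, made by the authors for loci assembled separately in each library. Tools listed in the submitters' processing notes, with no order or settings, are Cufflinks 2.2.1.0, Bowtie 0.12.8, Trim Galore 0.3.5 and MACS2 2.1.1; the build is mm9. No scaling between libraries was added to the deposited values. Libraries were amplified for 12 cycles of PCR, per the labels' protocols. Implied fragments are numbers after amplification, and the bounds are taken to cover counting error only.

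Group and replicate number come from each sample's title. Loci on chromosomes 1 to 19 were paired from replicate 1 by best mutual overlap (Python 3.11.15, pandas 2.3.3). The pairing was tried on simulated tables made from the loci of replicate 1 with small shifts of their ends. That trial does not cover loci assembled with larger shifts or split differently between libraries. Width is that in replicate 1, both ends included. Levels are FPKM as deposited, with no filter, and a pseudocount of 1 for Pearson correlations. With 1 group there is no contrast, and no test between groups was run. A table was called far from the other 3 by Dixon's outlier criterion. This compares the gap to the nearest other value, divided by the range of the 4, with a limit of 0.829. Loci named in the text are the 20 with the highest mean, the 10 highest at 1000 bases and over, the 5 widest, and the 5 largest and 3 smallest factors between tables at 50 FPKM and over. The 10 highest at 300 to 1000 bases, the deepest loci, the lowest level and the largest factors at 300 bases and over were chosen after their values were seen. The members, classes and lists were chosen with earlier results of these data known. Gene lists had been planned and were not used, since no locus was paired with a gene. The other samples of the series were not analysed here.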

Additional observations from a re-analysis of the deposited data

Results flagged for a closer look

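Values were examined in 78 sets of 4 (counts and medians of the tables, medians by width class and chromosome, and named loci). In 3 sets a table lay far from the other 3, where chance gives about 1 in 20 for independent sets. These sets share loci and libraries, so neither an excess nor the lack of one can be read from them. Some loci, such as chromosome 1, 183835157 to 183849531, were named for a large factor between tables. The rate of 1 in 20 does not apply to them. At chromosome 1, 183835157 to 183849531, replicate 1 had 124 FPKM and the others had 30.2 to 46.2 FPKM. At chromosome 15, 10539665 to 10644295, replicate 4 had 69.5 FPKM and the others 46.5 to 49.3 FPKM, on 14.9 to 21.6 implied fragments. At chromosome 2, 90235282 to 90235360 (79 bases), replicate 3 had 1557670 FPKM and the others 553715 to 707780 FPKM. Over all 612 members, 45 (7.35%) had such a table. That share is above 1 in 20, but the members share the same 4 libraries and the difference was not tested.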

How the results depend on the processing

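Alternatives at 300 bases and over, and rescaling to loci of that width, were added after seeing the data. The number of members rested on the overlap: 1635 loci at 50% and 396 at 90%, against 612, and 875 to 889 when any replicate was left out. The median level was 28.2 FPKM at 50%, 48.5 FPKM at 90%, 42.8 FPKM with all 6 pairs overlapping, and 40.9, 40.6 and 42.8 FPKM when paired from replicate 2, 3 or 4. It was 38.6 FPKM at 300 bases and over, 33.8 to 34.5 FPKM without each replicate, and 56.4 FPKM when rescaled to the members' summed level, which the narrowest loci dominate. The median factor between tables was 1.64 at 50%, 1.33 at 90%, 1.40 with all 6 pairs or at 300 bases and over, 1.40 and 1.35 with a pseudocount of 1 and 5, and 1.34 to 1.35 without each replicate. Under 300 bases the median was 5002 FPKM at 50%, 26258 FPKM by the width of the union and 7064 to 9506 FPKM without each replicate. At 300 to 1000 bases it was 29.0 FPKM at 50%, 92.0 FPKM at 90%, 71.8 FPKM with all 6 pairs, 75.1 FPKM by the union and 43.4 to 51.7 FPKM without each replicate. At 1000 to 3000 bases it was 17.6, 37.9 and 23.9 to 26.6 FPKM at 50%, at 90% and without each replicate. The same values at 3000 to 10000 bases were 27.9, 41.3 and 29.2 to 31.6 FPKM. At 10000 bases and over they were 31.99, 42.2 and 33.8 to 35.1 FPKM, and 36.8 FPKM by the union. At 50% the class of 300 to 1000 bases thus lay below that of 10000 and over, the reverse of their order at 80%. The highest chromosome median over the lowest was 2.02 for all members, 1.76 at 1000 bases and over and 1.70 to 2.21 without each replicate. Among named loci, leaving out 1 replicate moved the mean by over 1.5 times at 3: chromosome 2, 22599931 to 22599961, from 11023400 to 5546760 FPKM without replicate 1; chromosome 5, 46248446 to 46248476, from 10486230 to 6504770 FPKM without replicate 4; and chromosome 1, 183835157 to 183849531, from 59.3 to 37.6 FPKM without replicate 1. No paired analysis was possible because the values come from 1 group. Values of shallow members varied more between tables: at 300 bases and over, the median factor was 1.71 with under 20 implied fragments. It was 1.20 with 100 and over, and the part of depth was not tested.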

Other observations

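Of the 612 members, 136 (22.2%) had another member within 100 kb. Groups of at least 3 members with gaps of at most 100 kb numbered 7 and held 24 loci (3.92%), a search chosen after the values were seen. The largest group had 6 loci on chromosome 8 between 87366031 and 87549142, with means of 17.7 to 127 FPKM. Its strongest locus, 87366031 to 87370747, had 120, 122, 139 and 129 FPKM in replicates 1 to 4, while its neighbour from 87396125 to 87410003 had 45.3, 53.4, 16.04 and 41.2 FPKM, with replicate 3 low.

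A group of 3 on chromosome 13 between 23646924 and 23714426 was the only group of the 7 in which every locus was 300 to 1000 bases wide. Its loci, 433 to 786 bases wide, had means of 94.3 to 159 FPKM and factors between tables of 1.29 to 1.32. On chromosome 10, the locus from 127520378 to 127527326 had 181, 179, 189 and 190 FPKM, and its neighbours on either side within 100 kb had means of 20.7 and 20.3 FPKM. Members seldom lay inside a wider locus of the same table: 8 of 612 (1.31%), against 341 of 8647 autosomal loci in replicate 1 (3.94%).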
